A study of Mus musculus with 14 samples.

Results

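Interferon response genes are the genes that cells switch on when interferon reaches its receptor. This account follows 42 of them, listed by name and matched on gene symbols, in fibro-adipogenic progenitors (FAPs) from injured mouse muscle. All 42 were found among the 56953 genes of the BaCl2 table and among the 14330 genes of the glycerol table. FAPs are stromal cells of muscle, of mesenchymal origin, from which fat and scar tissue can form. They were isolated by magnetic cell sorting from the tibialis anterior muscle 3 days after injury with BaCl2 (barium chloride), which kills myofibres, or with glycerol, which also kills myofibres and leaves fat behind. The genotypes were SMA, taken to mean spinal muscular atrophy, and wild type (WT), with 3 libraries of each genotype after BaCl2 and 4 of each after glycerol. The labels give no allele, age, strain or sex, and do not name the antibodies of the sort. The study's title concerns whether FAPs of SMA muscle are prone to form fat. Whether each library is a different animal is not stated in the labels, so each p-value speaks of library-to-library spread alone, which may be technical. The injury is also the batch label, and injury and batch cannot be told apart.

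Type I interferons signal through the receptor chains Ifnar1 and Ifnar2 and the kinases Jak1 and Tyk2. These phosphorylate Stat2, which works with Irf9 in a complex that binds the interferon-stimulated response element (ISRE) in target promoters. Interferon gamma signals through Ifngr1 and Ifngr2 to factors that bind the gamma-activated site (GAS). The targets include more of the signalling proteins themselves, sensors of viral nucleic acid, and effectors that cut viral RNA, block translation, trap virus particles or attack the vacuoles of intracellular parasites. In injured muscle the infiltrating macrophages carry an interferon response too, and stromal cells respond to the same ligands.

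Promoter windows were available for 31 of the 42 genes (250 bases before to 50 after the gene start, RefSeq, GRCm38.p6). The core of the ISRE, a pair of GAAA blocks 2 bases apart on either strand, occurred in 18 of these 31 genes (58.1%) and in 3.99% of the 27025 genes with a window. All 6 GTPase genes with a window held it. The core of the GAS, TTCNNNGAA, occurred in 10 of the 31 (32.3%) and in 9.55% of all. The cores can overlap each other, and a match is a description of the letters, not a measured binding site. Of the genes whose genotype difference passed a test below, Irf9 and Oasl1 held neither core in their windows. The cores of Ifitm3 lay after the gene start. The stretches below, all before the gene start, are a choice that includes genes that passed no test and pairs with near-identical stretches. They are written 5′ to 3′ along the gene's strand, with every matched core in the stretch in capitals. A match on the opposite strand appears as its reverse complement.
Isg15: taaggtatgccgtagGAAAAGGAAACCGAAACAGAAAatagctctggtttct
Ifit1: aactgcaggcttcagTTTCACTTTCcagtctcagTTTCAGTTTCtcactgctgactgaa
Ifit3: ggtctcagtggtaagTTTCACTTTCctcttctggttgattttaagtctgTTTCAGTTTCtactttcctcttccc
Ifit3b: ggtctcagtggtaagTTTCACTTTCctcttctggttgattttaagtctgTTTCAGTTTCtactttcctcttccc
Oas3: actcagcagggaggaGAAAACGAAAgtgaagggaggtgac
Bst2: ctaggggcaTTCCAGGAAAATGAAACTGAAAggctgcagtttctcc
Stat2: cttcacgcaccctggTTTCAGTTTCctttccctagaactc
Irf1: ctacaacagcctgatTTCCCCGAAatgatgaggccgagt
Igtp: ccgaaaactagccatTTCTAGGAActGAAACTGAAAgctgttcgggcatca
Irgm2: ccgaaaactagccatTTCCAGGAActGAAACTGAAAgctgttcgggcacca
In Irf1 the capitals mark a GAS core, in Igtp and Irgm2 a GAS core followed by an ISRE core, in Bst2 a GAS core that overlaps the first of 2 ISRE cores, and in the others ISRE cores.

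The stretch of Isg15 lies at chr4:156200860-156200911 on the minus strand, and those of Ifit1, Ifit3 and Ifit3b at chr19:34640770-34640828, chr19:34583358-34583431 and chr19:34607754-34607827 on the plus strand. The stretches of Oas3 and Bst2 lie at chr5:120777710-120777749 and chr8:71537572-71537617, both on the minus strand, and that of Stat2 at chr10:128270261-128270300 on the plus strand. The stretches of Irf1, Igtp and Irgm2 lie at chr11:53769909-53769947, chr11:58199496-58199546 and chr11:58214887-58214937, all on the plus strand. In Isg15 3 matches overlap in 1 run, which starts 78 bases before the gene start. The stretches of Ifit3 and Ifit3b are identical over all 74 bases, and those of Igtp and Irgm2 differ at 2 of 51. The whole windows of Ifit3 and Ifit3b differ more. At the best offset without gaps, 75.0% of the 268 bases compared were identical. Ifit3 and Ifit3b also share much of their transcripts: 51.2% of the 50-base words of Ifit3 occur in another gene of the GENCODE vM21 transcripts, as do 45.0% of those of Ifit3b. For Oas1a the share is 57.6%, with Oas1g. The values of these 3 genes are uncertain, since reads could be split between the copies, while 32 of the 42 genes share under 5% of their words.

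The genotype labels were checked first on Smn1, the gene whose loss causes spinal muscular atrophy. After BaCl2, Smn1 measured 12.0, 9.995 and 11.3 CPM in SMA and 15.8, 17.2 and 15.3 CPM in WT libraries (log2 fold change -0.54, SE 0.092, adjusted p = 0.0131). After glycerol it measured 639.6, 806, 738 and 794 normalized counts in SMA and 1209, 935, 1084 and 1108 in WT libraries (log2 fold change -0.54, SE 0.10, adjusted p = 0.0364). The genotypes did not overlap in either injury, and SMA stood at 68.8% and 68.7% of the WT mean. BaCl2 libraries held 97.7 M to 136 M counts each (M, mega), and the lowest count of any of the 42 genes in any library was 445. Glycerol values sum to 71.4 M to 76.6 M per library after the authors' normalization, and their depth is unknown. The FAP marker Pdgfra was abundant in every library, at 714 to 1015 CPM after BaCl2 (CPM, TMM-scaled counts per M). Of the defining lymphocyte and natural killer cell markers Cd3g and Ncr1 were at 0 in every BaCl2 library, and the 8 markers of that list summed to at most 0.509 CPM.

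After BaCl2, interferon response genes were measured at lower levels in SMA libraries 1 and 2 than in WT, and SMA library 3 lay on both sides of WT, depending on the gene. Stat2, Bst2 and Ifitm3 fell in the test over all 3 libraries. After glycerol 41 of the 42 genes had a positive fold change, 37 of them with a negative one after BaCl2. Irf1, Irf9, Oas3 and Oasl1 rose in SMA in the glycerol test. Of these, Oas3 and Oasl1 had positive fold changes after BaCl2 too. Stat2, Bst2 and Ifitm3 did not pass after glycerol. The 4 glycerol SMA libraries lay close together, and WT library 1 stood below the rest.

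**Figure D1:**
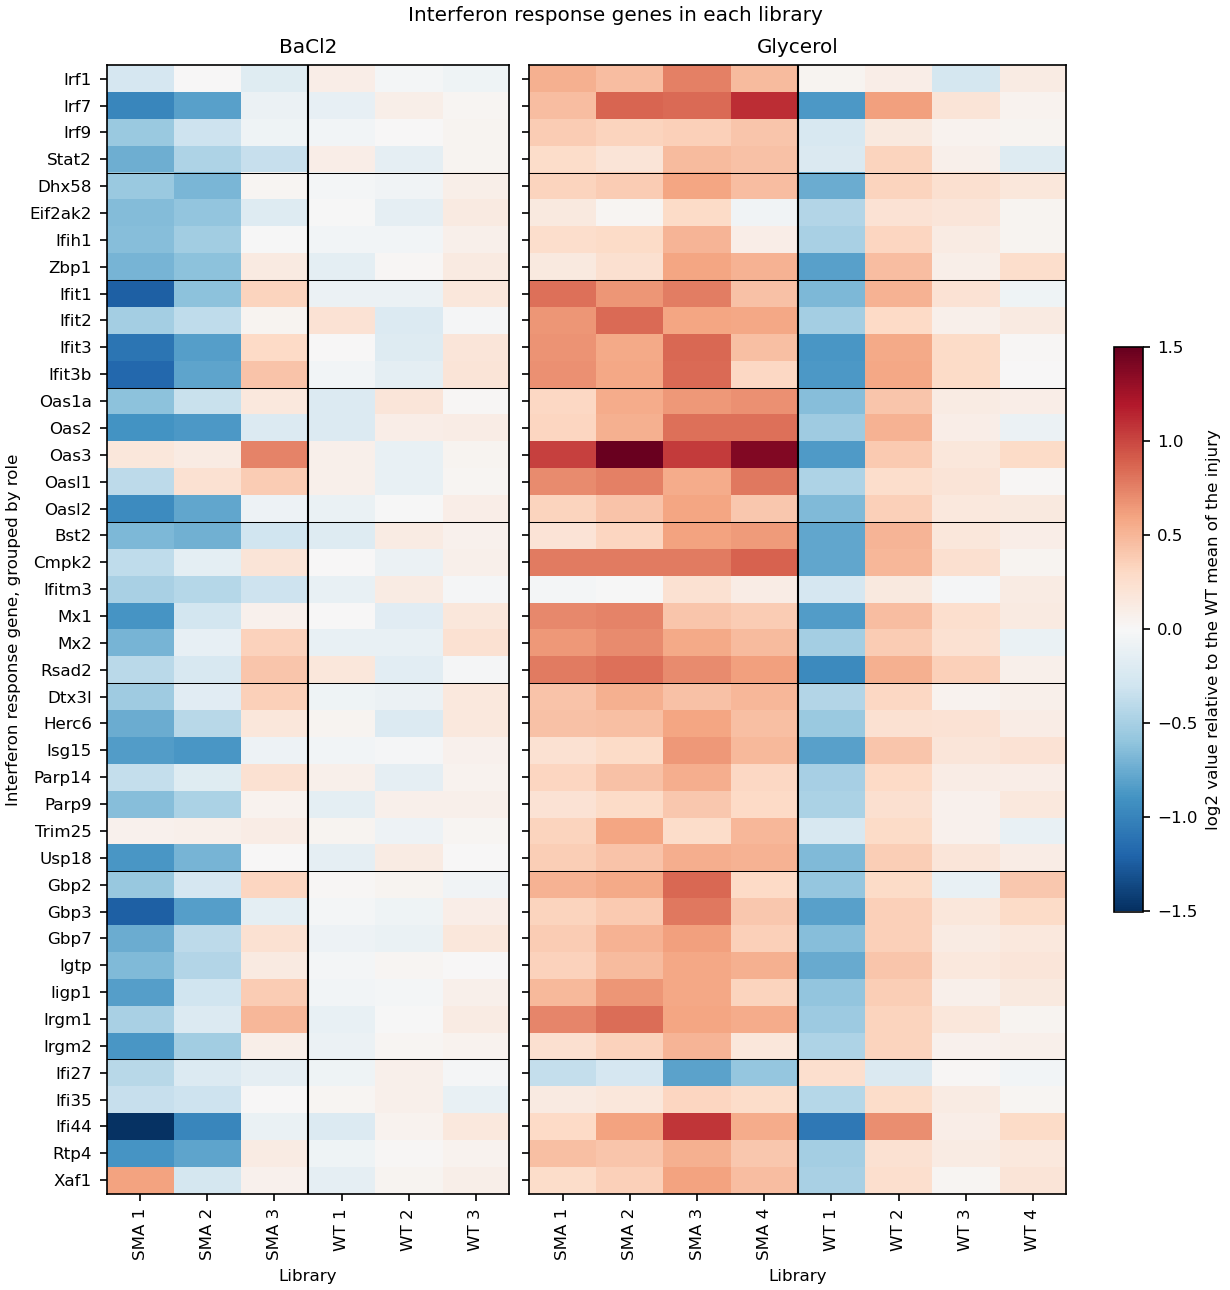
Log2 value of each interferon response gene (rows, grouped by role, separated by lines) in each library (columns), relative to the mean log2 value of the WT libraries of the same injury. BaCl2 SMA libraries 1 and 2 are blue over most genes while SMA library 3 is of mixed colour, and glycerol WT library 1 is blue against red SMA libraries.

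At an adjusted p of 0.05, 3 of the 42 genes were lower in SMA after BaCl2 and 0 higher, with 39 short of the threshold. Over all 20119 genes tested, 2.73% were called higher and 1.56% lower, 4.29% in all. The fold change was negative for 38 of the 42 genes, with a median of -0.31 against -0.0028 over all genes. In 9 genes all SMA values were below all WT values, where 13.1% of all genes do so, and in 2 genes every SMA library lay above, where 12.2% of all genes do so. Without adjustment, 16 genes had a p under 0.05, where 9.58% of all genes were lower and 9.67% higher at such a p. The 42 genes move together between libraries and are not separate observations. In bulk samples, fewer cells of a type and less RNA per cell cannot be told apart.

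After glycerol, 4 of the 42 genes passed as higher and 0 as lower, with 38 short of the threshold. Over all 14330 genes, 1.7% were called higher and 1.17% lower, 2.87% in all. The median of the 42 fold changes was 0.48, against -2.03e-05 over all genes. In 15 genes every SMA library lay above every WT library, where 6.59% of all genes do so. In 1 gene, Ifi27, every SMA library lay below, where 7.54% of all genes do so. Without adjustment, 28 of the 42 had a p under 0.05, where 12.3% of all genes were higher and 11% lower at such a p.

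The single libraries show where these numbers come from. The level of the 42 genes, the mean of their log2 values relative to the WT mean, was -0.65, -0.44 and 0.10 in BaCl2 SMA libraries 1, 2 and 3 and -0.041, -0.030 and 0.071 in the WT libraries. SMA library 1 was below every WT library in 39 of the 42 genes and SMA library 2 in 38. SMA library 3 was below every WT library in 10 genes, inside the WT range in 12 and above every WT library in 20. Among the SMA libraries it was the highest in 40 of the 42 genes, whereas it was the highest for 34.9% of all genes. The mean of SMA libraries 1 and 2 was 62.5% of library 3 in the median gene, with a range of 38.0% to 111.9%. SMA library 1 was the lowest of all 6 libraries in 36 genes, as it was for 23.9% of all genes. SMA library 3 was the highest of all 6 in 20 genes, as it was for 14.3% of all genes. For the counts of single SMA libraries against the WT libraries alone, the share of all genes was not computed.

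After glycerol the level was 0.41, 0.49, 0.58 and 0.46 in SMA libraries 1 to 4 and -0.58, 0.35, 0.13 and 0.096 in WT libraries 1 to 4. WT library 1 was the lowest of all 8 libraries in 40 of the 42 genes, as it was for 14.2% of all genes, and below every SMA library in 41. It stood at 58.6% of the mean of the other WT libraries in the median gene. WT library 2 was the highest WT library in 39 genes and lay inside or above the SMA range in 26. Leaving WT library 1 aside, every SMA library was above WT libraries 2 to 4 in 15 genes. The share of all genes was not computed for this count, nor for the counts of 41 and 26. The spread within groups was wider for these genes than for the typical gene: the median within-group SD on the log2 scale was 0.32 after either injury, against 0.17 over all genes after BaCl2 and 0.14 after glycerol.

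The fits were repeated with libraries left out. With BaCl2 SMA libraries 1 and 2 left out, the median BaCl2 fold change was 0.073, 26 of the 42 were positive, 0 genes were called lower and 1, Oas3, was called higher, where SMA library 3, then alone, has to be taken to vary as the WT group does. Without SMA library 3 the median was -0.55 and 30 of the 42 were called lower, where that fit called 3.24% of all genes lower. The count of members called lower was 0 when SMA library 2, or WT library 2 or 3, was the one left out. Leaving out glycerol WT library 1 lowered the glycerol median to 0.28, with 39 of 42 genes still positive and 0 called. Leaving out any other glycerol library kept the median between 0.45 and 0.59, but 0 of the 42 were called unless the library left out was SMA library 3. That fit called 7 of the 42 higher, where it called 7.54% of all genes higher.

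**Figure D2:**
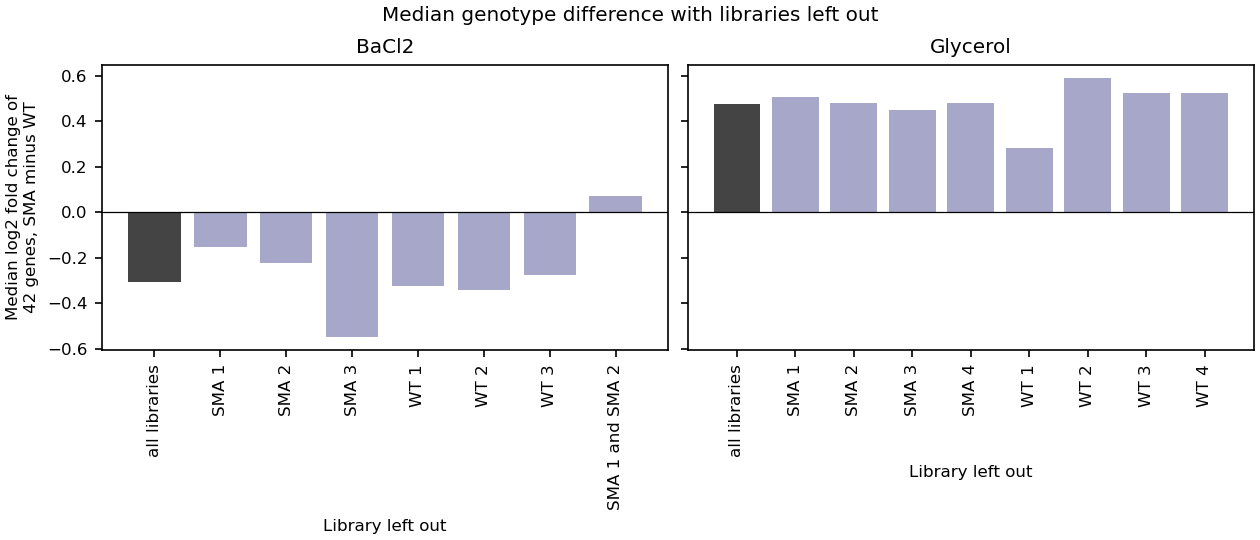
Median log2 fold change of the 42 interferon response genes, SMA minus WT (vertical axis), with all libraries (dark bar) and with the library named under each bar left out. After BaCl2 the bar changes sign when SMA libraries 1 and 2 are both left out (0.073), and after glycerol it is shortest without WT library 1 (0.28).

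Of the 4 transcription factors, Stat2 was lower after BaCl2, and Irf1 and Irf9 were higher after glycerol. In the sentences on single genes, values follow the order of the library numbers, CPM is the unit of the BaCl2 libraries, and normalized counts are the authors' glycerol values. The 2 scales cannot be compared with each other. Stat2, a partner of Irf9 in the complex that binds the ISRE, measured 56.4, 67.8 and 73.8 CPM in SMA and 100.1, 85.3 and 96.2 CPM in WT libraries. All 3 SMA values were below the WT values, with means of 66.0 ± 8.83 CPM in SMA and 93.9 ± 7.67 CPM in WT (SD, n = 3 each) (log2 fold change -0.51, SE 0.099, adjusted p = 0.0208). After glycerol Stat2 measured 11502, 10854, 13162 and 12902 normalized counts in SMA and 8136, 11999.9, 10036 and 8282 in WT libraries, and the genotypes overlapped (log2 fold change 0.35, SE 0.12, adjusted p = 0.141).

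Irf1, a transcription factor that interferon gamma induces, measured 119, 142 and 125 CPM in SMA and 151, 139 and 135 CPM in WT libraries after BaCl2, with overlapping genotypes (log2 fold change -0.14, SE 0.077, adjusted p = 0.361). After glycerol Irf1 measured 21993, 20979, 25616 and 21159.5 normalized counts in SMA and 15643, 16299.6, 12628 and 16623 in WT libraries, with means of 22437 ± 2165 in SMA and 15298 ± 1826 in WT (SD, n = 4 each) (log2 fold change 0.56, SE 0.098, adjusted p = 0.0317). Every glycerol SMA library was above every WT library, and WT library 3, not WT library 1, was the lowest. Irf9, the DNA-binding subunit of the ISRE complex, measured 35.2, 41.6 and 49.1 CPM in SMA and 50.1, 51.7 and 52.9 CPM in WT libraries after BaCl2. There all 3 SMA libraries were below WT, SMA library 3 by little (log2 fold change -0.30, SE 0.10, adjusted p = 0.151). After glycerol Irf9 measured 5878, 5683, 5806 and 6033 normalized counts in SMA and 3826, 5023, 4688 and 4649 in WT libraries, with means of 5850.0 ± 146 in SMA and 4546 ± 509 in WT (SD, n = 4 each) (log2 fold change 0.37, SE 0.079, adjusted p = 0.0447). The 4 SMA values lay close together and above every WT value.

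Irf7, which amplifies the production of type I interferon, measured 42.2, 47.3 and 78.4 CPM in SMA and 76.3, 88.4 and 84.9 CPM in WT libraries after BaCl2. SMA library 3 lay within the WT range there (log2 fold change -0.57, SE 0.19, adjusted p = 0.129). After glycerol it measured 14407, 19156, 18831 and 22451 normalized counts in SMA and 5755, 15934, 11951 and 10807 in WT libraries, a spread in both genotypes that left the test short of the threshold (log2 fold change 0.83, SE 0.27, adjusted p = 0.12). WT library 2 was above SMA library 1, so the genotypes overlapped.

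**Figure D3:**
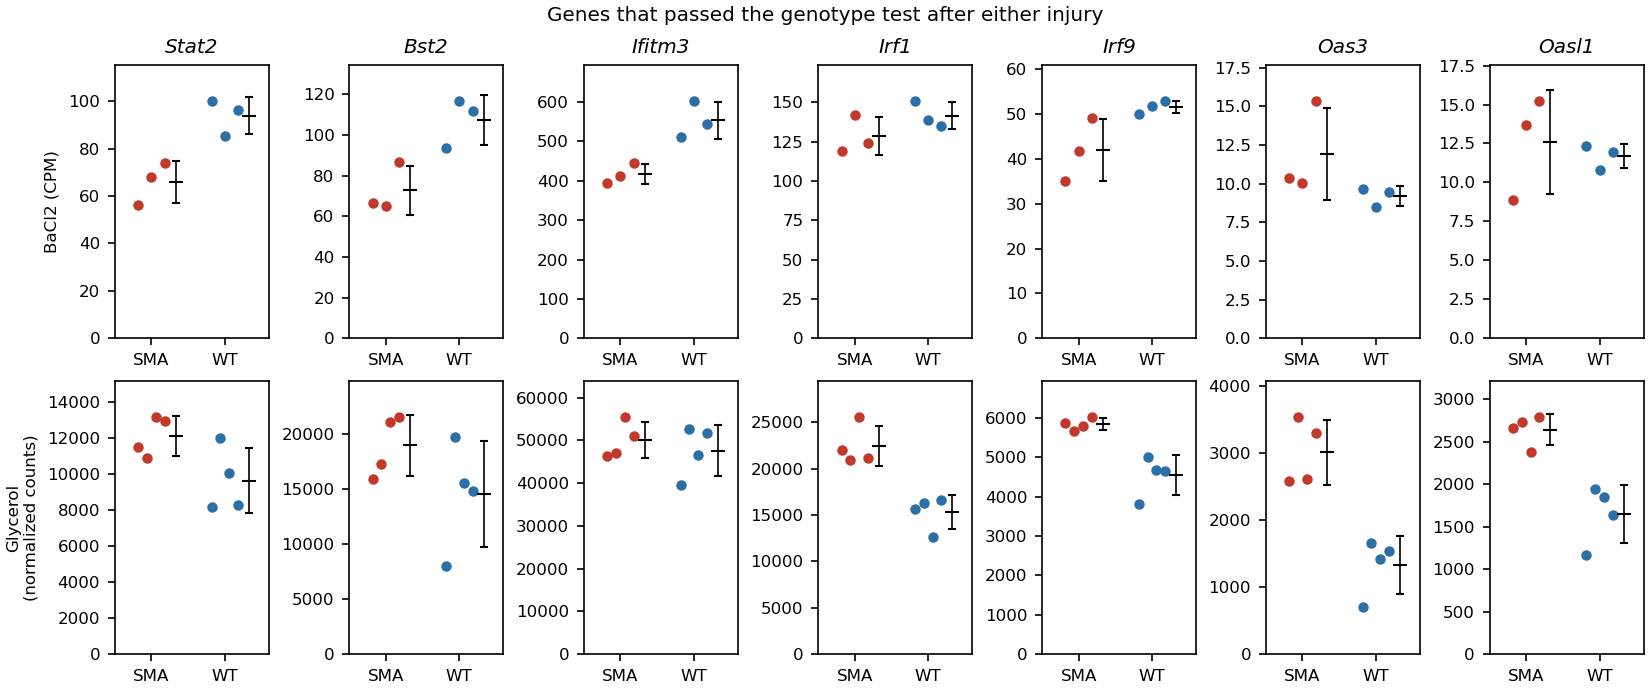
The 7 interferon response genes that passed the genotype test after either injury, by library (points), in CPM after BaCl2 (top) and in the authors' normalized counts after glycerol (bottom), with mean and SD per group (bars). Stat2, Bst2 and Ifitm3 are separated by genotype in the top row, and Irf1, Irf9, Oas3 and Oasl1 in the bottom row.

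None of the 4 nucleic acid sensors passed in either injury, and all 4 had negative fold changes after BaCl2 and positive ones after glycerol. Eif2ak2 (PKR), a kinase that halts translation when it binds double-stranded RNA, measured 53.6, 55.8 and 73.6 CPM in SMA and 84.0, 76.7 and 92.6 CPM in WT libraries after BaCl2. Every SMA library was below every WT library, and the test stopped just short of the threshold (log2 fold change -0.47, SE 0.12, adjusted p = 0.0539). After glycerol Eif2ak2 measured 10368, 9569, 11401 and 9072 normalized counts in SMA and 6929.7, 10896, 10614 and 9645 in WT libraries with overlapping genotypes (log2 fold change 0.10, SE 0.14, adjusted p = 0.7). Ifih1 (MDA5), a sensor of long double-stranded RNA, measured 42.1, 45.6 and 65.2 CPM in SMA and 63.8, 63.8 and 68.9 CPM in WT libraries after BaCl2 and 7612, 7698, 9026 and 6763 normalized counts in SMA and 4509.9, 7926, 6869 and 6486 in WT libraries after glycerol. SMA library 3 was within the BaCl2 WT range, and glycerol WT library 1 was the lowest of its 8. Ifih1 had fold changes of -0.36 and 0.29, with adjusted p of 0.182 and 0.304. Dhx58 (LGP2), which tunes the RIG-I-like receptors, measured 18.0, 16.4 and 27.0 CPM in SMA and 25.8, 25.4 and 27.9 CPM in WT libraries after BaCl2 and 4294, 4447, 5133 and 4689 normalized counts in SMA and 2033, 4299, 4015 and 3833 in WT libraries after glycerol, with the same libraries apart. Its fold changes were -0.37 and 0.44, with adjusted p of 0.238 and 0.242. Zbp1, a sensor of Z-form nucleic acid that can start necroptosis, had fold changes of -0.35 and 0.38 and did not pass.

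The OAS family makes the oligoadenylate messenger that activates RNase L. After glycerol 2 of its 5 genes rose, Oas3 and Oasl1, and after BaCl2 0 of 5 passed. Oas3 measured 2584, 3547, 2618 and 3302 normalized counts in SMA and 704, 1656, 1428 and 1538 in WT libraries after glycerol, with means of 3013 ± 486 in SMA and 1332 ± 429 in WT (SD, n = 4 each) (log2 fold change 1.24, SE 0.25, adjusted p = 0.041). That was 226% of the WT mean, the largest fold change among the 42 genes, and every SMA library was above every WT library. After BaCl2 Oas3 measured 10.3, 10.04 and 15.4 CPM in SMA and 9.66, 8.49 and 9.47 CPM in WT libraries, again with every SMA library above every WT library (log2 fold change 0.37, SE 0.15, adjusted p = 0.225). Oasl1, an OAS-like protein without synthetase activity, measured 2654, 2734, 2375 and 2792 normalized counts in SMA and 1171, 1939, 1842 and 1635 in WT libraries after glycerol, with means of 2639 ± 184 in SMA and 1647 ± 342 in WT (SD, n = 4 each) (log2 fold change 0.70, SE 0.15, adjusted p = 0.0416). All SMA libraries were above all WT libraries. After BaCl2 it measured 8.87, 13.7 and 15.2 CPM in SMA and 12.3, 10.8 and 12.0 CPM in WT libraries, where SMA library 1 was the lowest and SMA library 3 the highest (log2 fold change 0.11, SE 0.17, adjusted p = 0.801).

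The other OAS genes had negative fold changes after BaCl2. Oas2 measured 13.1, 13.4 and 21.1 CPM in SMA and 21.1, 26.0 and 26.2 CPM in WT libraries after BaCl2, where SMA library 3 almost equalled WT library 1 (log2 fold change -0.62, SE 0.17, adjusted p = 0.0733). After glycerol Oas2 measured 3922, 4528, 5556 and 5564 normalized counts in SMA and 2164, 4477, 3353 and 2945 in WT libraries (log2 fold change 0.63, SE 0.21, adjusted p = 0.116). Its genotypes overlapped there through WT library 2. Oasl2 measured 58.9, 66.2 and 108 CPM in SMA and 106, 113 and 122 CPM in WT libraries after BaCl2 and 16276, 17335, 19455 and 16958 normalized counts in SMA and 8134, 16436, 14369 and 14249 in WT libraries after glycerol, with fold changes of -0.55 (adjusted p = 0.135) and 0.44 (adjusted p = 0.204). Oas1a, which shares transcript words with Oas1g, had fold changes of -0.24 and 0.55, and neither passed.

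The IFIT proteins bind viral RNA and block its translation. None of the 4 genes passed in either injury, and their mean level was -1.002, -0.65 and 0.28 in BaCl2 SMA libraries 1, 2 and 3, the widest spread of the 8 role groups. Ifit1, which binds RNA whose cap lacks methylation, measured 19.7, 30.1 and 58.2 CPM in SMA and 43.6, 43.4 and 52.0 CPM in WT libraries after BaCl2. SMA library 3 was the highest of the 6 libraries and SMA library 1 the lowest (log2 fold change -0.36, SE 0.30, adjusted p = 0.575). After glycerol Ifit1 measured 12137, 10792, 11639 and 9278 normalized counts in SMA and 4283, 9783, 7921 and 6519.8 in WT libraries, where WT library 2 exceeded SMA library 4 (log2 fold change 0.68, SE 0.22, adjusted p = 0.113). Ifit3, a further gene of the family, measured 21.4, 25.8 and 56.4 CPM in SMA and 46.0, 39.8 and 51.9 CPM in WT libraries after BaCl2. After glycerol Ifit3 measured 11038, 10226, 12595 and 9441 normalized counts in SMA and 3778, 10228, 8424 and 7023 in WT libraries. The same libraries were low, and the fold changes were -0.41 (adjusted p = 0.499) and 0.64 (adjusted p = 0.187). Ifit3b, whose 74-base promoter stretch is that of Ifit3, had fold changes of -0.35 and 0.61.

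Ifit2, another RNA-binding member of the family, measured 23.2, 25.6 and 34.1 CPM in SMA and 38.5, 28.8 and 32.8 CPM in WT libraries after BaCl2, with SMA library 3 inside the WT range (log2 fold change -0.27, SE 0.14, adjusted p = 0.336). After glycerol it measured 5128, 5835, 4888 and 4859 normalized counts in SMA and 2285, 4001, 3406 and 3551 in WT libraries (log2 fold change 0.67, SE 0.15, adjusted p = 0.0542). There every SMA library was above every WT library, and the adjusted p was just over the threshold.

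Among the 6 membrane, Mx and nucleotide effectors, Bst2 and Ifitm3 fell after BaCl2, and 0 passed after glycerol. Bst2 (tetherin), which holds enveloped viruses at the cell surface, measured 66.8, 64.9 and 86.6 CPM in SMA and 93.7, 117 and 112 CPM in WT libraries. Every SMA library was below every WT library, with means of 72.8 ± 12.0 CPM in SMA and 107 ± 12.2 CPM in WT (SD, n = 3 each) (log2 fold change -0.56, SE 0.12, adjusted p = 0.0273). Its promoter stretch holds 2 overlapping ISRE cores and a GAS core. After glycerol Bst2 measured 15938, 17240.3, 21051 and 21556 normalized counts in SMA and 8036, 19679, 15577 and 14836 in WT libraries, with WT library 1 far below the rest (log2 fold change 0.44, SE 0.24, adjusted p = 0.301). Ifitm3, which blocks the fusion of viruses in endosomes, measured 395, 411 and 445 CPM in SMA and 512, 603 and 544 CPM in WT libraries after BaCl2. All SMA libraries were below all WT libraries, with means of 417 ± 25.3 CPM in SMA and 553 ± 46.1 CPM in WT (SD, n = 3 each) (log2 fold change -0.41, SE 0.075, adjusted p = 0.0173). After glycerol Ifitm3 measured 46455, 47142, 55536 and 51145 normalized counts in SMA and 39603, 52571, 46573 and 51714 in WT libraries and the genotypes overlapped (log2 fold change 0.078, SE 0.097, adjusted p = 0.67).

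Cmpk2, a mitochondrial nucleotide kinase, measured 8.23, 9.68 and 12.2 CPM in SMA and 10.7, 10.1 and 11.3 CPM in WT libraries after BaCl2 (log2 fold change -0.088, SE 0.13, adjusted p = 0.794). After glycerol it measured 2667, 2681, 2663 and 2872 normalized counts in SMA and 910.1, 2206, 1833 and 1597 in WT libraries (log2 fold change 0.80, SE 0.23, adjusted p = 0.0841). The glycerol SMA libraries lay close together and above every WT library. Mx2, a dynamin-like GTPase of the antiviral Mx family, measured 4.74, 7.01 and 9.71 CPM in SMA and 7.07, 7.10 and 8.96 CPM in WT libraries after BaCl2 and 1963, 2046, 1856 and 1738 normalized counts in SMA and 878, 1629, 1459 and 1163 in WT libraries after glycerol. SMA library 3 was the highest BaCl2 library, and all glycerol SMA libraries were above WT. Its fold changes were -0.11 (adjusted p = 0.858) and 0.60 (adjusted p = 0.0841). Mx1, its relative, and Rsad2 (viperin), which makes a nucleotide that ends viral RNA chains, had BaCl2 fold changes of -0.32 and -0.040. Their glycerol fold changes were 0.57 and 0.73, and neither passed in either injury.

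The modifiers attach or remove ISG15, ubiquitin or ADP-ribose, and 0 of 7 passed in either injury. Isg15, the ubiquitin-like protein that is joined to other proteins during the response, measured 30.5, 29.8 and 51.9 CPM in SMA and 52.9, 54.0 and 57.0 CPM in WT libraries after BaCl2. SMA libraries 1 and 2 were at close to equal values, and SMA library 3 lay just below the lowest WT library (log2 fold change -0.55, SE 0.18, adjusted p = 0.125). After glycerol Isg15 measured 9133, 9509, 12202 and 10870.4 normalized counts in SMA and 4425, 10386, 8782 and 9012 in WT libraries, with WT library 1 lowest and WT library 2 above both SMA libraries 1 and 2 (log2 fold change 0.42, SE 0.24, adjusted p = 0.324). Usp18, which strips ISG15 from proteins and damps signalling at the type I receptor, measured 10.4, 11.8 and 19.1 CPM in SMA and 17.4, 20.8 and 19.1 CPM in WT libraries after BaCl2 and 4381, 4564, 4951 and 4867 normalized counts in SMA and 2153, 4391, 3846 and 3663 in WT libraries after glycerol. Its fold changes were -0.47 (adjusted p = 0.206) and 0.46 (adjusted p = 0.183), with SMA library 3 inside the WT range.

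Trim25, a ubiquitin ligase of the RIG-I pathway, measured 128, 128 and 132 CPM in SMA and 125, 116 and 125 CPM in WT libraries after BaCl2. Its SMA libraries all lay above WT by a small margin (log2 fold change 0.084, SE 0.057, adjusted p = 0.473). After glycerol Trim25 measured 14004, 16779, 13484 and 15682 normalized counts in SMA and 9372, 13599.5, 11626 and 10281 in WT libraries, and WT library 2 lay above SMA library 3 (log2 fold change 0.43, SE 0.12, adjusted p = 0.0767). Dtx3l, a ubiquitin ligase that works in a complex with Parp9, measured 24.4, 31.5 and 45.4 CPM in SMA and 33.7, 33.3 and 39.4 CPM in WT libraries after BaCl2 and 6986, 7519.5, 7079.7 and 7381 normalized counts in SMA and 3853, 6444, 5389 and 5495 in WT libraries after glycerol. All glycerol SMA libraries were above WT, and the fold changes were -0.070 (adjusted p = 0.889) and 0.48 (adjusted p = 0.0816). Parp9 itself, the ADP-ribosyltransferase Parp14 and Herc6, the mouse ligase of ISG15, had BaCl2 fold changes of -0.33, -0.083 and -0.29. Their glycerol fold changes were 0.30, 0.41 and 0.49, and none of the 3 passed.

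The GTPases act on the vacuoles of intracellular parasites, and none of the 7 passed in either injury. Gbp3, a guanylate-binding protein, measured 28.1, 37.2 and 59.4 CPM in SMA and 64.3, 63.0 and 70.4 CPM in WT libraries after BaCl2, with SMA library 3 below the WT values and SMA library 1 at less than any other (log2 fold change -0.66, SE 0.21, adjusted p = 0.114). After glycerol Gbp3 measured 9791, 10216, 13508 and 10300.4 normalized counts in SMA and 4418, 10022, 8787 and 9489 in WT libraries, SMA library 3 being the highest and WT library 1 the lowest (log2 fold change 0.48, SE 0.24, adjusted p = 0.266). Irgm1, a regulator of the immunity-related GTPases, measured 38.0, 46.0 and 75.0 CPM in SMA and 49.1, 53.0 and 57.7 CPM in WT libraries after BaCl2. The SMA values spread to both sides of WT (log2 fold change -0.0061, SE 0.20, adjusted p = 0.992). After glycerol Irgm1 measured 10883, 11725, 9887 and 9609 normalized counts in SMA and 4492, 8272, 7386 and 6734 in WT libraries, every SMA library above every WT library (log2 fold change 0.68, SE 0.17, adjusted p = 0.0638).

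Irgm2, a regulator of the same family, measured 35.4, 45.1 and 68.9 CPM in SMA and 61.2, 66.5 and 67.4 CPM in WT libraries after BaCl2 and 8293, 8859, 9957 and 7879 normalized counts in SMA and 5070.1, 8805, 7287 and 7359.5 in WT libraries after glycerol. Its fold changes were -0.38 (adjusted p = 0.302) and 0.32 (adjusted p = 0.244). Igtp (Irgm3), whose promoter stretch is nearly that of Irgm2, had fold changes of -0.28 and 0.49. Iigp1, an effector GTPase that coats parasite vacuoles, measured 56.5, 81.0 and 129.6 CPM in SMA and 96.6, 98.1 and 105 CPM in WT libraries after BaCl2 and 16713, 18921, 17944 and 15084 normalized counts in SMA and 7911, 15452, 12651 and 13250.2 in WT libraries after glycerol. SMA libraries 1 and 3 were the lowest and the highest BaCl2 libraries, and the fold changes were -0.17 (adjusted p = 0.764) and 0.52 (adjusted p = 0.136). Gbp2 and Gbp7, further guanylate-binding proteins, had fold changes of -0.11 and -0.25 after BaCl2 and of 0.56 and 0.47 after glycerol.

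Of the remaining 5 targets, 0 passed in either injury. Ifi44, a cytoplasmic protein of the type I response, had the most negative BaCl2 fold change of the 42 genes, at 9.64, 13.7 and 25.1 CPM in SMA and 23.3, 28.0 and 30.0 CPM in WT libraries (log2 fold change -0.75, SE 0.27, adjusted p = 0.166). SMA library 3 was inside the WT range. After glycerol Ifi44 measured 5203, 6447, 8872 and 6225 normalized counts in SMA and 2008, 6830.2, 4532 and 5140.2 in WT libraries, with WT library 2 above 3 of the 4 SMA libraries (log2 fold change 0.63, SE 0.33, adjusted p = 0.285). Rtp4, a chaperone of membrane receptors that also binds viral RNA complexes, measured 18.4, 19.7 and 37.1 CPM in SMA and 32.4, 34.4 and 35.1 CPM in WT libraries after BaCl2 and 5362, 5246, 5716 and 5215 normalized counts in SMA and 2765, 4613, 4281 and 4397 in WT libraries after glycerol. Its glycerol SMA libraries were all above WT, and its fold changes were -0.44 (adjusted p = 0.308) and 0.45 (adjusted p = 0.113).

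Ifi27, a small mitochondrial protein, was the only gene of the 42 with a negative fold change after glycerol. It measured 88.3, 102 and 107 CPM in SMA and 113, 124 and 116 CPM in WT libraries after BaCl2, all SMA libraries below WT (log2 fold change -0.25, SE 0.077, adjusted p = 0.107). After glycerol it measured 4844, 5186, 3562 and 4141 normalized counts in SMA and 7353, 5310.1, 6269 and 5998 in WT libraries, again with all SMA libraries below WT (log2 fold change -0.50, SE 0.13, adjusted p = 0.071). In it glycerol WT library 1 was the highest library, not the lowest. Ifi35, a partner of Nmi, had fold changes of -0.21 and 0.22. Xaf1, which binds the apoptosis inhibitor XIAP, had 0.17 and 0.42, and its highest BaCl2 value was in SMA library 1, at 32.1 CPM against 17.6 to 22.5 CPM in the other 5 libraries.

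**Figure D4:**
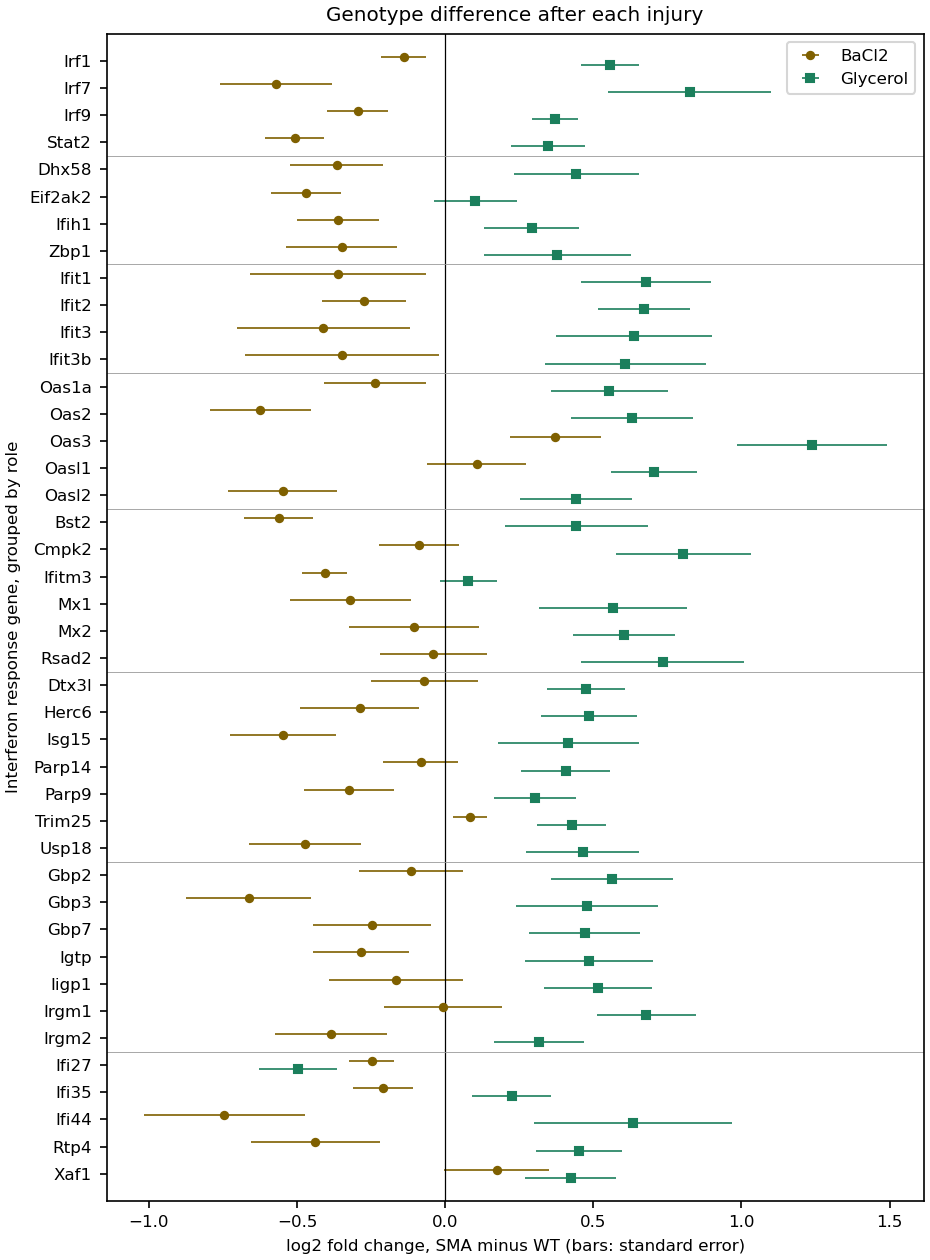
Log2 fold change of each interferon response gene, SMA minus WT (horizontal axis; bars are the standard error), after BaCl2 (brown circles) and after glycerol (green squares), grouped by role. Most BaCl2 values lie left of 0 and most glycerol values right of it, with Ifi27 negative after both injuries.

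The genotype difference itself was compared between the injuries. For 37 of the 42 genes the fold change was negative after BaCl2 and positive after glycerol, for 4 (Oas3, Oasl1, Trim25 and Xaf1) it was positive after both, and for Ifi27 negative after both. In the test of the difference over the 13960 genes in both tables, Irf1 passed, with a glycerol fold change larger than the BaCl2 one by 0.70 on the log2 scale (SE 0.14, adjusted p = 0.0498). Of all genes tested, 0.229% were called in that direction and 0.15% in the other, 0.38% in all. The next smallest adjusted p were 0.0548 for Irf9, with a difference of 0.68, and 0.0562 for Stat2, with a difference of 0.86. The difference was positive for 41 of the 42 genes, with a median of 0.81 against 0.013 over all genes, and 38 of the 42 had an unadjusted p under 0.05, where 10.6% of all genes were positive and 9.33% negative at such a p.

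The difference between the injuries also rests on few libraries. With BaCl2 SMA libraries 1 and 2 left out its median was 0.34, and with glycerol WT library 1 left out too it was 0.16, with 37 genes positive and 5 negative. In both cases SMA library 3 was the only SMA library left after BaCl2, so effect sizes alone are given. The Irf1 difference kept its size, at 0.74 and 0.75. With single libraries left out it passed in 2 of 14 fits, those without glycerol SMA library 3 or WT library 2, and lay between 0.61 without glycerol WT library 3 and 0.77 without BaCl2 SMA library 2. Its adjusted p was at most 0.136, without BaCl2 SMA library 1.

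The calls in single injuries were as sensitive. Stat2 after BaCl2 passed without SMA library 1 (adjusted p = 0.0314) or SMA library 3 (0.00388), and not without SMA library 2 or WT library 1, 2 or 3 (adjusted p at most 0.113). Its fold change stayed between -0.59 and -0.40. Bst2 passed without SMA library 3 or WT library 1, and not without SMA library 1 or 2 or WT library 2 or 3 (adjusted p at most 0.133, fold changes of -0.70 to -0.48). Ifitm3 passed without SMA library 1 or 3 or WT library 1, and not without SMA library 2 or WT library 2 or 3 (adjusted p at most 0.088, fold changes of -0.46 to -0.34 over all 6 omissions). In SMA library 3 alone the fold changes of Stat2, Bst2 and Ifitm3 were -0.35, -0.31 and -0.32, the same direction, and none passed.

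After glycerol, the 4 calls held without SMA library 3 and not without any other library. Without the mean-variance trend in limma 0 of the 42 were called and 2 of all genes. The adjusted p of Irf1 ran up to 0.0963 (without WT library 3), that of Irf9 up to 0.116 (without WT library 3), and those of Oas3 and Oasl1 up to 0.116 and 0.116 (without SMA library 2). Without WT library 1, the fold changes of Irf1, Irf9, Oas3 and Oasl1 were 0.57, 0.29, 0.96 and 0.55. In the authors' deposited table, 0 of the 42 genes were higher and 6 lower after BaCl2 at an adjusted p of 0.05, where 7.74% and 6.04% of all its genes with a value were. The authors' deposited table has Stat2, Oas2, Bst2, Ifi27, Ifitm3 and Eif2ak2 lower. After glycerol, the authors' deposited table has 15 of the 42 genes higher and 1, Ifi27, lower, where 7.28% and 5.21% of all its genes were.

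The signalling parts of the pathway outside the 42 genes were read from a list of 134 further symbols. After BaCl2, 121 were tested, of which 9 were higher and 3 lower, where 2.73% and 1.56% of all genes were. After glycerol, 119 were tested, of which 11 were higher and 0 lower, where 1.7% and 1.17% of all genes were. For the difference between injuries, 0 of 119 passed by the limma test, with 61 at an unadjusted p under 0.05. The medians were -0.14 after BaCl2 and 0.29 after glycerol. Interferon transcripts themselves were close to absent. Ifnb1 had 2 to 36 counts per BaCl2 library and Ifng 0 to 6, and 1 of the 10 ligand genes was tested, Ifnb1, at 0.224 ± 0.0448 CPM in SMA and 0.0548 ± 0.0669 CPM in WT (SD, n = 3 each) (log2 fold change 1.99, SE 0.76, adjusted p = 0.184).

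Of the receptor and kinase genes, 0 of 9 passed after BaCl2 and 0 of the 8 tested after glycerol. Ifnar1 and Ifnar2, the chains of the type I receptor, had BaCl2 fold changes of 0.17 and -0.015 (adjusted p = 0.103 and 0.936). Their glycerol fold changes were 0.075 and 0.12 (adjusted p = 0.393 and 0.359). Ifngr1 and Ifngr2, the chains of the gamma receptor, had BaCl2 fold changes of 0.051 and -0.039 (adjusted p = 0.706 and 0.818). After glycerol these were -0.015 and 0.21 (adjusted p = 0.912 and 0.218). The receptor values lay close together in all libraries: Ifnar2, for example, measured 46.3, 46.2 and 46.0 CPM in SMA and 47.5, 48.9 and 43.5 CPM in WT libraries after BaCl2.

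The 3 listed genes that fell after BaCl2 were Ly6e, Tapbp and Tor3a, named after their values were seen, with fold changes of -0.43, -0.39 and -0.42.

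Of the 9 listed genes that rose after BaCl2, the 8 with the smallest p are named here. Slfn2, a regulator of quiescence in immune cells, had a fold change of 0.93 (adjusted p = 0.00597), Tlr9 and Tlr7, endosomal sensors of DNA and RNA, 1.02 and 0.75 (adjusted p = 0.00924 and 0.0223), and Irf8, a factor of monocyte development, 0.69 (adjusted p = 0.0172). Ifi30, a lysosomal reductase of antigen processing, rose by 0.47 (adjusted p = 0.0132), Cd274 (PD-L1) by 0.72 (adjusted p = 0.0171), the phosphatase Ptpn6 by 0.79 (adjusted p = 0.0208) and Ifi209 by 0.52 (adjusted p = 0.0266) on the log2 scale. In all 8 every SMA library, library 3 included, was above every WT library, where 12.2% of all genes do so. That held for 15 of the 121 listed genes tested. The 8 were picked by their small p, which favours such separation. Slfn2, for example, measured 124, 112 and 87.0 CPM in SMA and 61.3, 52.8 and 55.1 CPM in WT libraries.

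After glycerol the listed genes that rose include Ciita, the master regulator of MHC class II genes, with a log2 fold change of 2.17 (adjusted p = 0.0307) on values of 282, 245, 109 and 146 normalized counts in SMA and 26.8, 30.8, 51.9 and 58.3 in WT libraries. Slfn1 had a log2 fold change of 1.41, Gbp8 of 1.39 and Tlr9 of 1.30 (adjusted p = 0.0286, 0.0308 and 0.0375). Ifi209 had 1.22 and Epsti1 1.04 (adjusted p = 0.0309 and 0.0308). Cd274 had 0.85 and Oas1b, an OAS gene that is truncated in many laboratory strains, 0.66 (adjusted p = 0.0299 and 0.0368). Slfn1 and Ifi209 were low in SMA library 3 relative to the other SMA libraries, at 448 and 1908 normalized counts.

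Markers of macrophages and monocytes moved with the genotype in both injuries. Of the 14 markers, 12 were higher in SMA after BaCl2 and 5 after glycerol, where 2.73% and 1.7% of all genes were. In both injuries 0 of the markers were lower. Their summed level was 1905 to 2917 CPM in SMA and 1066 to 1470 CPM in WT after BaCl2. After glycerol it was 116723 to 287307 normalized counts in SMA and 102843 to 133385 in WT, and 0 of the 14 markers were at 0 throughout. By library, the mean log2 level of the markers relative to WT was 1.16, 0.97 and 0.75 in BaCl2 SMA libraries and 0.95, 1.20, 0.21 and 1.49 in glycerol SMA libraries. The order of the libraries differed from that of the interferon response genes. After BaCl2 these were lowest in SMA library 1, where the markers were highest, and after glycerol these were highest in SMA library 3, where the markers were lowest among the SMA libraries. Glycerol WT library 1, low in interferon response genes, had a macrophage level of 0.0095, between those of the other WT libraries.

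**Figure D5:**
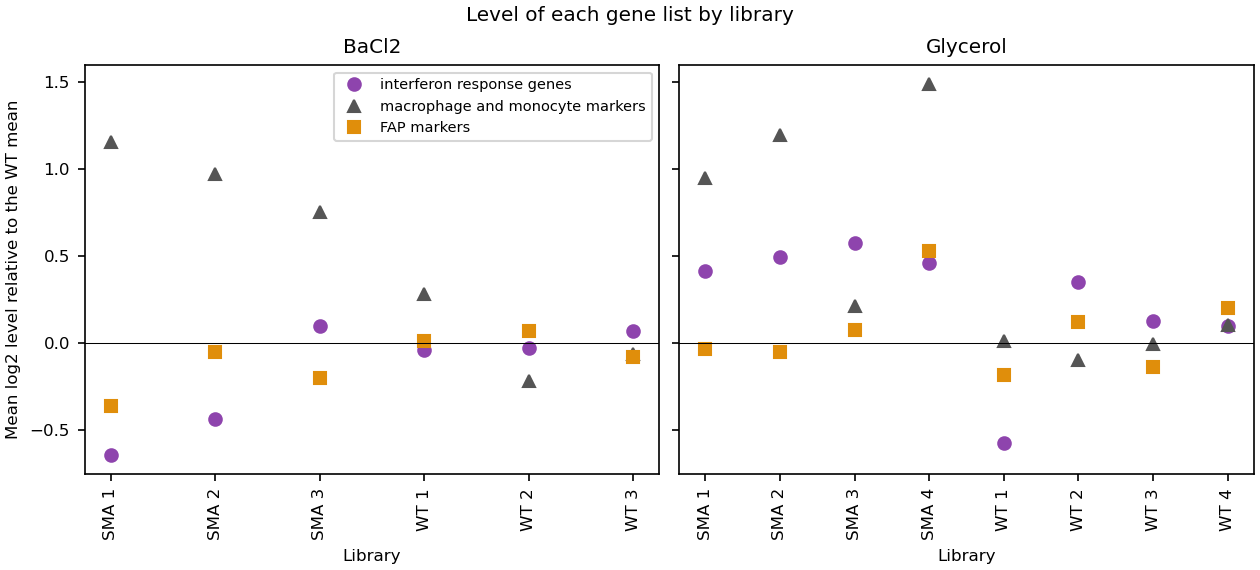
Mean log2 level of 3 gene lists in each library, relative to the WT mean of the injury: the 42 interferon response genes (circles), 14 macrophage and monocyte markers (triangles) and 12 FAP markers (squares). BaCl2 SMA library 1 combines the highest BaCl2 macrophage level (1.16) with the lowest interferon level (-0.65), and glycerol WT library 1 has a macrophage level near 0 with an interferon level of -0.58.

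Of the 12 FAP markers, 0 were higher and 3 lower after BaCl2, where 1.56% of all genes were lower. After glycerol 0 of the FAP markers passed. Their level was -0.36, -0.051 and -0.20 in BaCl2 SMA libraries 1, 2 and 3. Their summed level was 41271 to 54470 CPM in SMA and 61426 to 67967 CPM in WT. Much of that sum is collagen: Col1a1 alone measured 17388, 19318 and 25654 CPM in SMA and 27273, 30241 and 29842 CPM in WT. Of the 12 markers 10 had negative and 2 positive BaCl2 fold changes, and Pdgfra did not pass (log2 fold change -0.044, adjusted p = 0.889). Neutrophil markers stood high in BaCl2 SMA libraries 1 and 2, which were low in interferon response genes. The neutrophil level was 2.004, 1.497 and -0.063 in SMA libraries 1, 2 and 3. Of the 4 neutrophil markers tested 1 passed, as higher, where 2.73% of all genes were. The summed level of the neutrophil markers was small, at 13.1 to 25.1 CPM in SMA and 6.76 to 9.08 CPM in WT. All 6 were above 0 in some library. In glycerol WT library 1, also low in interferon response genes, the neutrophil level was 0.14, inside the range of the other WT libraries (-0.65 to 0.64). After glycerol, endothelial markers were lower in SMA in 2 of 6 genes, where 1.17% of all genes were. The summed endothelial level was 4779 to 7641 normalized counts in SMA and 9497 to 15158 in WT. The part of these cell types in the interferon response values was not tested.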

How the data were processed

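RNA of sorted FAPs was sequenced from 14 libraries. For BaCl2 the authors deposited raw counts, whole numbers per gene and library. The glycerol values (a signal per gene) are the authors' normalized counts, from which no whole reads could be recovered: at most 50.6% of the low values fell on whole steps (tolerance 0.1). The log2 fold changes and p-values in the deposited tables were made by the authors and served only for comparison. Columns of z-scores, 6 in number, were left out. Per the submitters' processing notes the tools were fastp, Salmon, featureCounts and DESeq2. Neither aligner nor build nor annotation is given in the sources used here.

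The members, gene lists and some alternatives were chosen with earlier results of these data known. With R 4.3.3, BaCl2 counts were scaled by TMM, filtered with filterByExpr (20119 genes) and tested with the quasi-likelihood test of edgeR 4.0.16, SMA minus WT. The SE is the fold change over the root of the F statistic. Glycerol log2(value + 1) was tested with limma 3.58.1 and a mean-variance trend (14330 genes), so fold changes of low genes are understated. The difference, glycerol minus BaCl2, is the interaction in limma over both tables (13960 genes). All p-values were adjusted by Benjamini and Hochberg over all genes tested, with a threshold of 0.05. DESeq2 1.42.0 served as an alternative. Each step was tested on simulated data. Every member is named. Each library is given for members that passed any test and for those with the smallest p per role and injury. Further pathway genes are the 4 receptor chains and up to 8 that passed per injury; 1 gene of the list as first drawn up is not reported here, for a reason unrelated to its values, and each count of the list leaves it out, which moves a count by at most 1. Promoter windows came from RefSeq, and shared words from GENCODE vM21 transcripts. Alternatives were other scalings, filters and pseudocounts, libraries left out and a replicate block.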

Additional observations from a re-analysis of the deposited data

Results flagged for a closer look

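Among 86 groups of 4 libraries tested for a value far from the others, 3 had one, where chance flags about 1 in 20. Gbp3 had a glycerol SMA library 3 at 13508 normalized counts, with a gap to the next library of 0.863 of the range of its group. Cmpk2 had a glycerol SMA library 4 at 2872 normalized counts (gap 0.914 of the range), and Herc6 a glycerol SMA library 3 at 3566 (gap 0.919 of the range). In all 3 the value was the highest of its group. The genotype effect on Irf1 differed between the injuries, by 0.70 on the log2 scale in the limma test of the difference (adjusted p = 0.0498). Every glycerol SMA library was above every WT library, while after BaCl2 the genotypes overlapped.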

How the results depend on the processing

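After BaCl2, edgeR called 863 genes, with 860 under RLE and 872 under upper-quartile scaling. DESeq2 called 1758 genes (5 of the 42 interferon response genes lower), no count filter gave 1867 (19 lower, 1 higher), and SMA libraries 1 and 2 left out together gave 108 (0 lower, 1 higher). Of all genes tested in each of these fits, DESeq2 called 4.87% lower. The fit without a count filter called 2.38% lower and 3.29% higher. With single libraries left out, 41 to 1577 genes were called, 0 to 30 of the 42 were lower, and their median was -0.55 to -0.15. With SMA libraries 1 and 2 left out the median was 0.073, and 22 of the 42 fold changes turned positive, among them those of the genes given library by library, Ifit1 (0.33), Ifit2 (0.028), Ifit3 (0.29), Mx2 (0.33), Dhx58 (0.032), Rtp4 (0.12), Iigp1 (0.37), Irgm1 (0.49), Irgm2 (0.081), Dtx3l (0.36) and Cmpk2 (0.19). After glycerol, limma called 411 genes, 409 with a pseudocount of 10 and 201 among genes above the median mean. A common upper quartile gave 484 (5 of the 42 higher, where 2.18% of all genes were). Without the mean-variance trend 2 genes were called (0 of the 42). With single libraries left out, 0 to 1645 genes and 0 to 7 of the 42 were called, and the median was 0.28 to 0.59. The difference between injuries held 53 genes. The z test gave 1470 (25 of the 42 higher, where 5.53% of all genes were), and a pseudocount of 10 gave 55. With BaCl2 SMA libraries 1 and 2 left out the median was 0.34. With glycerol WT library 1 left out as well, an alternative chosen after seeing the data, the median was 0.16 (Iigp1 -0.058, Dtx3l -0.030). With single libraries left out, the difference held 0 to 440 genes and 0 to 7 of the 42, with a median of 0.60 to 1.03. The 7 were called without BaCl2 SMA library 3, where 0.715% of all genes were called higher. The causes of these shifts were not tested.

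Single omissions changed the sign of the BaCl2 fold change in 10 of the 42 genes. Among the genes given library by library these were Mx2 (-0.38 to 0.12), Iigp1 (-0.53 to 0.079), Irgm1 (-0.33 to 0.19), Dtx3l (-0.34 to 0.12), Cmpk2 (-0.25 to 0.039) and Oasl1 (-0.045 to 0.31), and outside the 42 Ifngr2 (-0.078 to 0.012) and Ifnar2 (-0.064 to 0.019). After glycerol they did so in 2 of the 42, Ifitm3 (-0.0079 to 0.13) and Eif2ak2 (-0.043 to 0.17), and in Ifngr1 (-0.064 to 0.021).

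Deviations of libraries with the same replicate number correlated little (-0.071 to 0.071). BaCl2 SMA libraries 1 and 3 correlated best with the WT library of their own number, and the other SMA libraries did not. With 3 or 4 libraries per group this cannot settle whether the numbers mark pairs. With the replicate number as a block, 1144 genes were called after BaCl2 (11 of the 42 lower, where 2.39% of all genes were). The block gave 257 after glycerol (1 of the 42 higher, where 1.28% of all genes were) and 18 for the difference (0 of the 42). The depth of the glycerol libraries is unknown, so no counting error could be given for their values.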

Other observations

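The role groups differed in how far BaCl2 SMA library 3 lay from WT. Its mean log2 level relative to WT was -0.17 for the transcription factors, -0.0091 for the nucleic acid sensors, 0.21 for the GTPases and 0.28 for the IFIT family. In BaCl2 SMA library 1 the same groups stood at -0.63, -0.64, -0.77 and -1.002. Among glycerol libraries, WT library 1 was low in every group, from -0.32 for the transcription factors to -0.73 for the IFIT family. These levels were not tested. The further targets of the 134-symbol list followed the same order of libraries after BaCl2, at -0.31, -0.18 and 0.067 in SMA libraries 1, 2 and 3. The receptors and kinases of that list stood at 0.065, -0.023 and -0.15 in the same libraries.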
